A study of Mus musculus with 4 samples.

Results

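Of 55487 mouse genes measured in 4 libraries labelled as skin regulatory T cells, 72 were present in both libraries numbered 2 and close to absent from both libraries numbered 1. Genes were taken when their TPM (a transcript level scaled to gene length and to a fixed total per library) was at least 20 in non-UVB 2 and in UVB 2 and under 1 in non-UVB 1 and in UVB 1. Genes with names beginning mt-, Trav, Traj, Trbv, Trbj, Krt, Mrp or Psm were left out, as were Ikzf4 and Gzma. The levels of these 72 genes in the libraries numbered 2 against those numbered 1 therefore chose them. Those levels are given as a description, with no test. The choice treats UVB and non-UVB alike but uses the values of all 4 libraries, and so it fixes 1 high and 1 near-absent library in each UVB group.

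The mice had shaved backs and received 60 mg of a cream with 5% imiquimod each day, an agonist of Toll-like receptor 7 that produces a psoriasis-like dermatitis. The UVB group (UVB 1, UVB 2) was also exposed to narrow-band UVB every other day, 3 times in all, and the non-UVB group (non-UVB 1, non-UVB 2) was not. The sources used here do not give strain, age, sex, how the cells were sorted or how many animals stand behind a library. No source says that the libraries of a group came from separate animals, so the spread between them may be technical.

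Regulatory T cells hold immune responses in check, and their identity depends on the transcription factor Foxp3. Skin that is dissociated to reach them also holds keratinocytes, which differentiate from a basal layer kept by p63 (Trp63) into a barrier of cross-linked cornified envelopes. Proteins of those envelopes include the late cornified envelope (Lce) and small proline-rich (Sprr) families, whose genes lie together in the epidermal differentiation complex. Epidermal T cells with a gamma-delta receptor also reside in mouse skin.

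The libraries differed by number in their markers. Where 4 values stand together they follow the order non-UVB 1, UVB 1, non-UVB 2, UVB 2, and a pair of values with no library named is of non-UVB 2 and then UVB 2. Foxp3 was listed at 0 in non-UVB 1, at 3.49 TPM in UVB 1, and at 19.4 TPM in non-UVB 2 and 19.3 TPM in UVB 2. Helios (Ikzf2), a factor of stable regulatory T cells, was at 0.068, 17.6, 303 and 170 TPM in the same order. Cd4 was at 6.02, 33.9, 138 and 71.6 TPM, the alpha-beta receptor constant gene Trac at 274, 554, 2350 and 878 TPM, and the gamma-delta receptor constant gene Trdc at 1394, 1184, 48.5 and 71.6 TPM. Cd8a was listed at 0 in every library. The libraries numbered 2 thus had more of the defining regulatory T cell markers, and both libraries numbered 1 went against their label in having little or no Foxp3 and high Trdc. Depth ran the other way, with 3.41 gigabases of sequence behind non-UVB 1 and 4.20 behind UVB 1, and 2.47 behind non-UVB 2 and 2.38 behind UVB 2. Genes at 1 TPM or more numbered 7825, 10317, 8033 and 10227, so non-UVB 1 had the fewest despite its depth. Haemoglobin genes made up 11.7%, 0.153%, 0.441% and 0.255% of TPM. Genes with names beginning mt- made up 0.857%, 0.487%, 5.73% and 6.42%. In bulk RNA, fewer cells of a type and less RNA per cell cannot be told apart. The libraries were prepared with a kit for very small RNA amounts. The part of transcripts missed for that reason in the values near 0 was not tested.

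Both thresholds were met by 84 genes, 2.43% of the 3457 genes at 20 TPM or more in both libraries numbered 2, and 12 of the 84 were left out by name. Of the same 3457 genes, 466 (13.5%) were under 1 TPM in non-UVB 1 and 136 (3.93%) in UVB 1. The mirrored thresholds, at least 20 TPM in both libraries numbered 1 and under 1 in both numbered 2, were met by 175 of 3846 genes (4.55%), or 172 after the same names were dropped. Genes present in one pair of libraries and missing from the other were thus found in both directions.

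**Figure D1:**
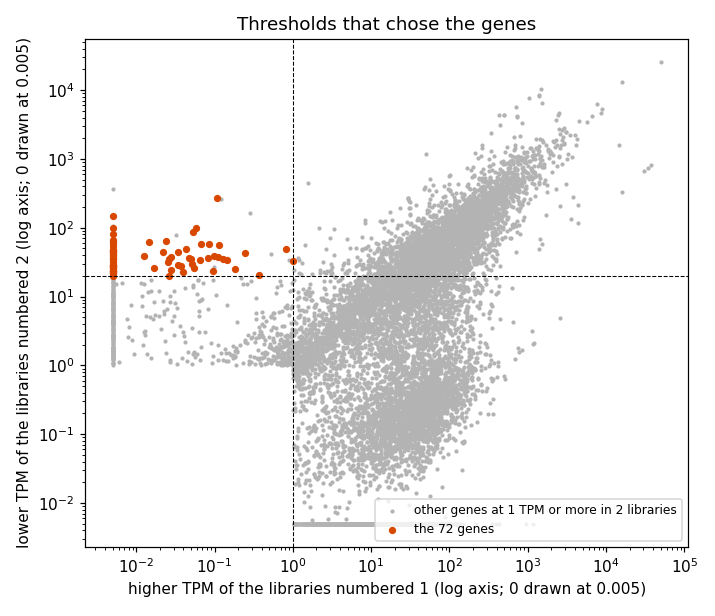
Each point is a gene at 1 TPM or more in at least 2 libraries, with the higher TPM of the libraries numbered 1 on the x axis and the lower TPM of the libraries numbered 2 on the y axis, both logarithmic. The 72 chosen genes lie left of 1 TPM and above 20 TPM. Other points in that corner are genes left out by name.

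In non-UVB 1, 42 of the 72 genes were listed at 0, in UVB 1 45 were, and 35 were listed at 0 in both. Their summed level was 1.83 and 3.56 TPM in non-UVB 1 and UVB 1, and 5546 TPM in non-UVB 2 and 4022 TPM in UVB 2. Single genes ran from 20.1 to 292 TPM in non-UVB 2, with a median of 65.6, and from 20.003 to 269 TPM in UVB 2, with a median of 43.0. Most genes were thus moderate in level where present, and 2 exceeded 0.5 TPM in a library numbered 1. These were Dubr, a long noncoding RNA, at 0.992 TPM, and Fmr1 at 0.817 TPM, both in UVB 1.

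Near the lower limit of 20 TPM, the genes just inside were Trp53inp1 (20.003 TPM in its lower library numbered 2), Nectin2 (20.1), Gas7 (20.7), Naa16 (22.2) and Dyrk1b (22.2). Just outside it were Rragd (19.2), Bod1 (18.7), Tnk1 (18.2), Dnal4 (18.1) and Wdr75 (17.6). At the limit of 1 TPM, the genes just inside after Dubr and Fmr1 were Gas7 (0.367 TPM in its higher library numbered 1), Mgst2 (0.245) and Zdhhc5 (0.184). Just outside were Bzw2 (1.04), Vps54 (1.17), Rlim (1.18), Rnf157 (1.20) and Mylpf (1.28). The limit of 20 TPM thus fell within a continuous run of levels.

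**Figure D2:**
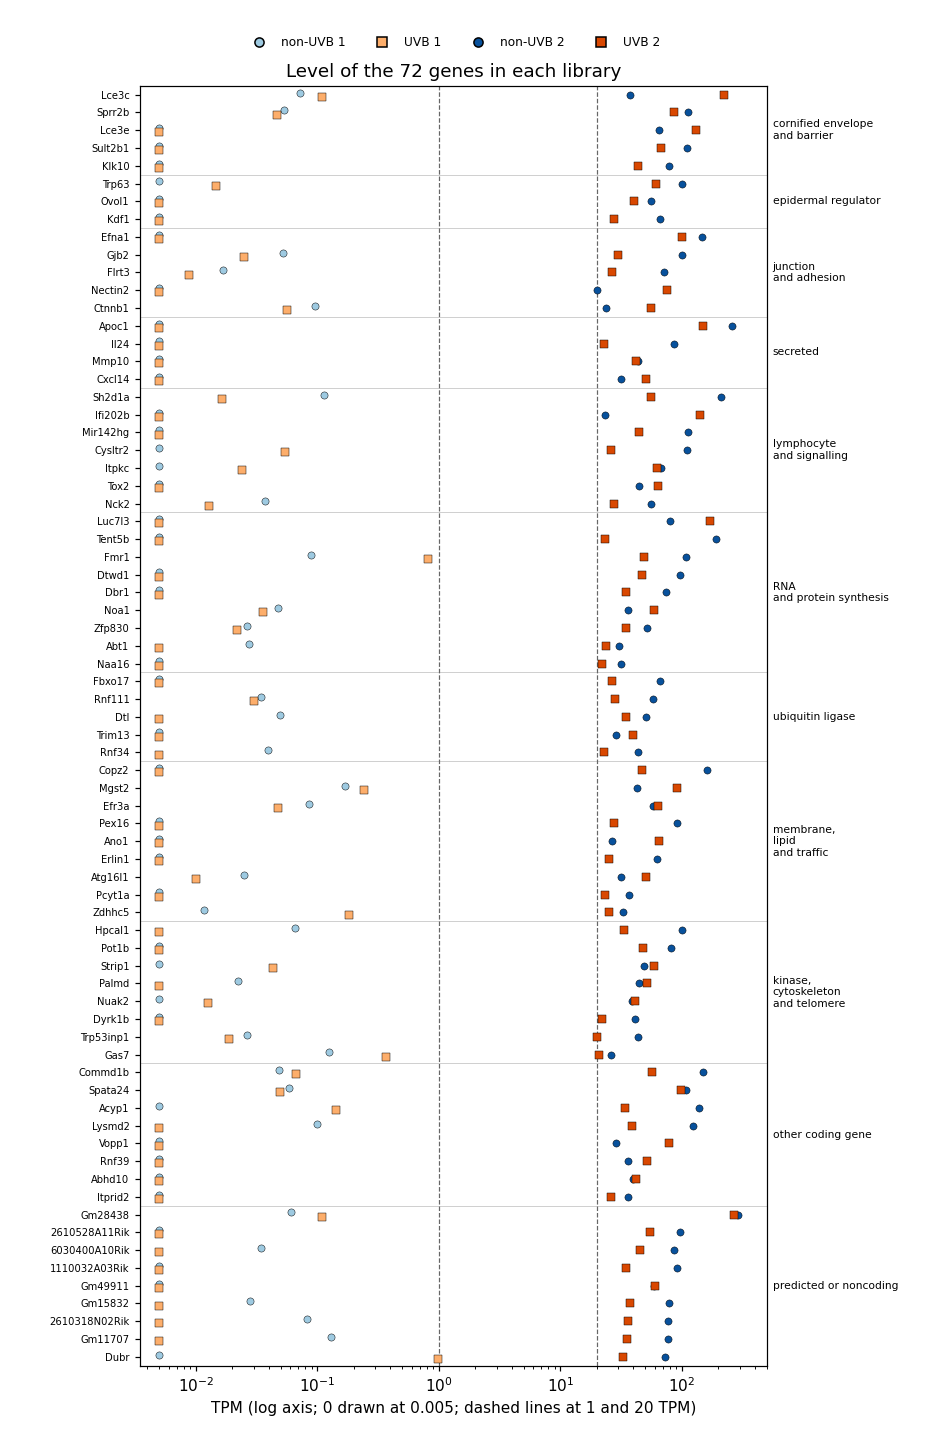
Each row is one of the 72 genes, grouped by role, and the 4 symbols give its TPM in the 4 libraries on a logarithmic axis, with 0 drawn at 0.005. The dashed lines mark 1 and 20 TPM, and no gene has a symbol between them.

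Genes of epidermal barrier, differentiation and adhesion were present at up to 222 TPM in the libraries numbered 2 and at or near 0 in those numbered 1. The roles of the 72 genes were assigned after they were known: 5 act in the cornified envelope and skin barrier, 3 are regulators of epidermal differentiation and 5 are junction or adhesion proteins. Lce3c (chr3:92944486-92945733, GRCm38, plus strand), a late cornified envelope protein, was at 0.0717, 0.110, 37.3 and 222 TPM in the 4 libraries. Lce3e (chr3:92967061-92968281), which lies beyond Lce3d, was listed at 0 in the pair numbered 1. It was at 64.6 TPM in non-UVB 2 and 131 TPM in UVB 2. Both Lce3 genes were higher in UVB 2 than in non-UVB 2. Sprr2b (chr3:92316620-92318085), a small proline-rich cross-linked envelope precursor, was at 0.0535, 0.0467, 113 and 87.1 TPM, with the opposite order of the libraries numbered 2.

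The other barrier genes were Sult2b1, which makes cholesterol sulphate in the upper epidermis, and Klk10, a secreted kallikrein-related peptidase. Sult2b1 was at 111 TPM in non-UVB 2 and 67.3 TPM in UVB 2, Klk10 was at 79.3 and 43.9 TPM, and both were listed at 0 in the libraries numbered 1. The regulators were Trp63, Ovol1 and Kdf1. Trp63 (chr16:25683763-25892102), the master regulator of stratified epithelium, was listed at 0 in non-UVB 1 and was at 0.0147 TPM in UVB 1, 100 TPM in non-UVB 2 and 61.7 TPM in UVB 2. Ovol1, a zinc finger factor of epidermal differentiation, was at 56.3 TPM in non-UVB 2 and 40.7 TPM in UVB 2, and Kdf1, a factor that limits keratinocyte proliferation, at 66.8 and 27.6 TPM. All 3 regulators were lower in UVB 2 than in non-UVB 2.

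Junction and adhesion genes were Efna1, Gjb2, Flrt3, Nectin2 and Ctnnb1. The Eph receptor ligand ephrin-A1 (Efna1) was at 148 TPM in non-UVB 2 and 100 TPM in UVB 2, and connexin 26 (Gjb2), a gap junction channel of the epidermis, was at 100 and 29.7 TPM. The adhesion protein nectin-2 (Nectin2) was at 20.1 and 75.2 TPM, and beta-catenin (Ctnnb1), which joins cadherins to actin and carries Wnt signals in most cell types, was at 23.6 and 55.6 TPM. Ctnnb1 was at 0.0952 TPM in non-UVB 1 and 0.0565 TPM in UVB 1, while Actb, the cytoplasmic beta-actin gene, was at 2086 and 2872 TPM there. The 5 genes were therefore not uniform across the libraries numbered 2, with 3 lower and 2 higher in UVB 2.

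The starts of 3 of these epidermal genes and of Mmp10, a secreted matrix metalloproteinase, are shown because these genes carry the barrier and matrix roles and share the split by number. Each runs from 250 bases before to 50 bases after the RefSeq gene start (GRCm38.p6), on the plus strand, at chr3:92944236-92944535 for Lce3c, chr3:92966811-92967110 for Lce3e, chr3:92316455-92316754 for Sprr2b and chr9:7502092-7502391 for Mmp10. Capitals mark the AP-1 letters TGANTCA and the TATA letters TATAAA, searched on both strands, and in the 4 stretches no 2 matches overlapped.
Lce3c promoter: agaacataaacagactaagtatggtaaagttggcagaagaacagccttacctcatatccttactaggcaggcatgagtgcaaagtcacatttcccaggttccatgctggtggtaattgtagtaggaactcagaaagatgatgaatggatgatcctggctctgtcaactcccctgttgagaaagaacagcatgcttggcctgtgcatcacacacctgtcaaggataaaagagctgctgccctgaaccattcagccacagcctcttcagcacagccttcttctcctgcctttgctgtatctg
Lce3e promoter: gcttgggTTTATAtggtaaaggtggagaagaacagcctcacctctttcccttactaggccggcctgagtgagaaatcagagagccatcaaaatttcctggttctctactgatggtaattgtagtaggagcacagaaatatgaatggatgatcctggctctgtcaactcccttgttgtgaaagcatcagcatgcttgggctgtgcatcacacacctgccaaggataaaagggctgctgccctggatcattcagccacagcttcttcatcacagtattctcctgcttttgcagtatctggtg
Sprr2b promoter: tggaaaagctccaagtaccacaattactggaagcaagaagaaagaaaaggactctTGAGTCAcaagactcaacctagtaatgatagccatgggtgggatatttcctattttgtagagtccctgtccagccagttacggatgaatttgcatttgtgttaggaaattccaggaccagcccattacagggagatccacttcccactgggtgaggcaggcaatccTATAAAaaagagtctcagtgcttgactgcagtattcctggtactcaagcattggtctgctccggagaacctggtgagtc
Mmp10 promoter: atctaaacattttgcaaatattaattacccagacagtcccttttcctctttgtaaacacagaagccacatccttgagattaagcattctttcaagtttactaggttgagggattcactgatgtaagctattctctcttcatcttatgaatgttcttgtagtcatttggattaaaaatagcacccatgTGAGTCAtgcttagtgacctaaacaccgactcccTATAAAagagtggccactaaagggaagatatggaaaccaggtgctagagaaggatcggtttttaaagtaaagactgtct
In a global alignment Lce3c and Lce3e were identical at 246 of 315 columns (78.1%), against 150 of 320 (46.9%) for Lce3c and Sprr2b. TGANTCA was found for 4 of the 49 genes with a promoter in the table (8.16%: Mgst2, Mmp10, Sprr2b and Sult2b1) and for 8.97% of all 27025 genes with one. TATAAA was found for 12 of 49 (24.5%) and for 15.7% of all. Lce3c had neither set of letters in this window, and the capitals in Lce3e lie 243 bases before its start.

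The 60 marker genes of keratinocytes were read in full beside these genes, since the list bears on their level. Of the 60, 25 were at 20 TPM or more in both libraries numbered 2, and 5 of the 25 (20%) met both thresholds: Trp63, Ovol1, Lce3c, Gjb2 and Krt15, the last left out by name. The share over all genes was 2.43%. The list was chosen with earlier results of these data known, so the 2 shares are given as a description only. Of the 25, 11 were under 1 TPM in non-UVB 1 and 5 in UVB 1. Summed over the list, levels were 1059, 1478, 7948 and 8830 TPM. The basal keratin Krt14 was at 101, 214, 1526 and 1232 TPM, and its partner Krt5 at 0.0953, 56.6, 304 and 266 TPM. Of the 60, 36 were higher in both libraries numbered 2 than in both numbered 1, none had the reverse, 18 overlapped and 6 were listed at 0 throughout. Among those that overlapped were the desmosome gene Dsp, at 0.789, 3.12, 0.124 and 13.6 TPM, and the E-cadherin gene Cdh1, at 69.8, 26.6, 1.14 and 38.5 TPM, both lowest in non-UVB 2. The part of keratinocyte RNA in the levels of the 72 genes was not tested.

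The regulatory T cell list gave 23 genes at 20 TPM or more in both libraries numbered 2, and none met both thresholds, also before names were left out. Ikzf4, a Foxp3 partner that met the thresholds and was left out by name, was not in that list. That list summed to 12946, 11838, 19479 and 15418 TPM. Alpha-beta T cell markers gave 22 such genes, of which 1, Sh2d1a, was among the 72 (4.55%). The gamma-delta T cell list summed to 28449, 26513, 2874 and 2800 TPM, the reverse order of the keratinocyte list. The hair follicle and sebaceous gland list summed to 2.39, 33.1, 121 and 369 TPM and the neutrophil list to 2363, 2539, 5460 and 4298 TPM, both sums also higher in the libraries numbered 2. Few of the 26 hair follicle and sebaceous gland genes carried that sum: 1 was at 20 TPM or more in both libraries numbered 2. Of the 26, 3 were higher in both libraries numbered 2, none had the reverse, 8 overlapped and 15 were listed at 0 throughout. Melanocyte, endothelial, mast cell and Schwann cell lists had no gene at 20 TPM or more in both libraries numbered 2. The fibroblast list had 1 such gene and summed to 148, 66.7, 186 and 88.9 TPM, with its collagen gene Col1a1 listed at 0 in every library.

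**Figure D3:**
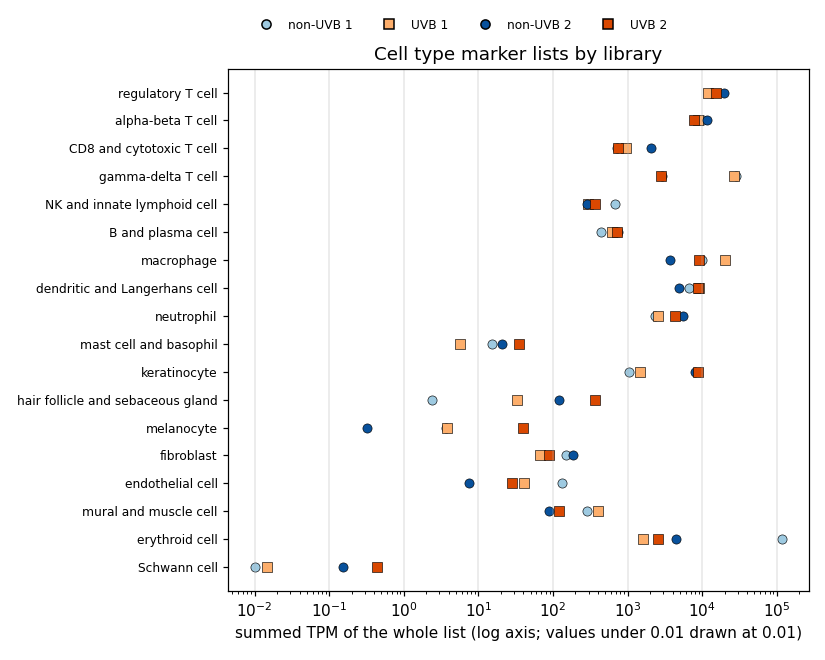
Summed TPM of each whole cell type marker list, on a logarithmic axis, with 1 symbol per library. Keratinocyte markers sum to 7948 TPM in non-UVB 2 and 8830 in UVB 2, against 1059 in non-UVB 1 and 1478 in UVB 1, and the gamma-delta T cell list has the reverse order.

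Around Lce3c and Lce3e, the whole Lce3 group behaved alike in the libraries numbered 1 and unlike in those numbered 2. None of the 6 Lce3 genes reached 1 TPM in non-UVB 1 or UVB 1, whereas 4 did in non-UVB 2 and 6 in UVB 2. The 6 summed to 0.0717, 0.110, 117 and 806 TPM. Lce3a, Lce3b, Lce3d and Lce3f missed selection through non-UVB 2, where they were at 0.329, 0, 5.66 and 9.33 TPM, against 37.4, 90.5, 238 and 86.9 TPM in UVB 2. Reads between Lce3 genes are uncertain, because Lce3c and Lce3e each have a copy elsewhere at 95% identity or more over at least 50% of the transcript.

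The Sprr2 genes were less strictly split by number. Of 11, 1 reached 1 TPM in non-UVB 1, 8 in UVB 1, 10 in non-UVB 2 and 11 in UVB 2, and they summed to 109, 202, 2080 and 1717 TPM. Sprr2d was at 0.160, 60.97, 587 and 419 TPM, so it was low only in non-UVB 1, and Sprr2g was at 108, 0.157, 354 and 313 TPM, low only in UVB 1. Sprr2b was the single Sprr gene under 1 TPM in both libraries numbered 1 and above 20 TPM in both numbered 2. Of the 14 Lce1 genes, 1 reached 1 TPM, in UVB 2.

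**Figure D4:**
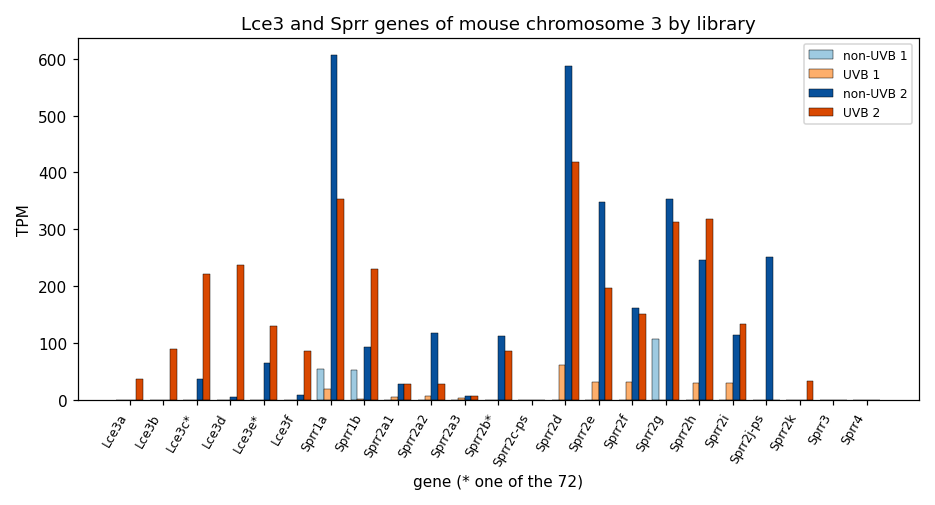
Bars give the TPM of each Lce3 and Sprr gene in the 4 libraries, from a linear axis at 0, with the genes among the 72 starred. Lce3 genes are tallest in UVB 2, where they sum to 806 TPM, and most Sprr2 genes are tall in both libraries numbered 2.

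Secreted proteins were Apoc1, Il24, Mmp10 and Cxcl14, all 4 listed at 0 in non-UVB 1 and UVB 1. Apoc1 (chr7:19689481-19692660, minus strand), a small apolipoprotein, was the most abundant named gene by mean level, at 258 TPM in non-UVB 2 and 149 TPM in UVB 2. Its neighbour Apoe, which encodes apolipoprotein E, was at 666, 1147, 700 and 1095 TPM in the 4 libraries. Apoe thus had similar levels in both numbers, and Apoc1 did not. The macrophage list had 11 genes at 20 TPM or more in both libraries numbered 2, none of them under 1 TPM in either library numbered 1. That list summed to 10056, 19937, 3698 and 8956 TPM, lower in both libraries numbered 2.

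Il24, an IL-10 family cytokine that keratinocytes and T cells can make, was at 86.7 TPM in non-UVB 2 and 23.0 TPM in UVB 2. Genes for its receptor chains Il22ra1 and Il20rb were listed at 0 in every library. The epithelial chemokine Cxcl14 was at 31.6 and 50.9 TPM, and Mmp10 at 44.0 and 42.0 TPM. In the list of cytokines, chemokines and their receptors, Cxcl14 and Il24 were 2 of 29 genes at 20 TPM or more in both libraries numbered 2 (6.90%).

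A lymphocyte and signalling group held 7 genes. Sh2d1a (chrX:42502453-42529330, plus strand), which encodes the SLAM adaptor SAP of T and NK cells, was at 0.113, 0.0164, 212 and 55.4 TPM in the 4 libraries. The SLAM receptor genes Slamf1 and Slamf6 did not share that split: Slamf1 was at 96.5, 38.4, 5.99 and 1.04 TPM and Slamf6 at 7.48, 6.03, 0.745 and 85.2 TPM. Other receptors of that family were not read here. Tenm1, on the opposite strand over 26.6% of the exonic bases of Sh2d1a, was at most 0.001601 TPM in any library. Fyn, the kinase recruited by SAP, was at 84.1, 66.3, 15.8 and 34.7 TPM, higher in the libraries numbered 1.

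Ifi202b, an interferon-inducible DNA-binding protein, was listed at 0 in the pair numbered 1 and was at 23.4 TPM in non-UVB 2 and 142 TPM in UVB 2. Cysltr2, a receptor for cysteinyl leukotrienes, was at 111 and 26.1 TPM. Mgst2, a membrane enzyme that can make leukotriene C4, was at 42.5 and 91.4 TPM, the other order. Itpkc, a kinase of inositol trisphosphate, was at 67.2 and 63.1 TPM, and the HMG-box factor Tox2 was at 44.3 and 63.8 TPM. The adaptor Nck2, which links receptors to actin, was at 55.9 and 27.9 TPM, while its paralogue Nck1 was at 0.0382, 22.3, 47.3 and 42.4 TPM, low in non-UVB 1 alone.

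Mir142hg (chr11:87755577-87757270, plus strand) is the host transcript of the blood cell microRNA miR-142. It was listed at 0 in the pair numbered 1 and was at 112 TPM in non-UVB 2 and 44.2 TPM in UVB 2. The leucocyte gene Ptprc was present in all 4 libraries, at 115, 108, 81.6 and 143 TPM. The mature strands from RefSeq (GRCm38.p6, plus strand) lie within the host gene and are shown because they are its known product, with the seed, bases 2 to 8, in capitals.
miR-142a-5p (chr11:87756867-87756887): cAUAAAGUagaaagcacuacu
miR-142a-3p (chr11:87756903-87756925): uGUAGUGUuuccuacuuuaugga
The libraries were not made from small RNA, so these values are of the host transcript and not of either mature strand.

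Of the remaining coding genes, most encode proteins used by many cell types. In RNA handling and protein synthesis there were 9. Luc7l3, a U1 snRNP-associated splicing factor, was listed at 0 in the pair numbered 1 and was at 80.2 TPM in non-UVB 2 and 172 TPM in UVB 2. Tent5b, a non-canonical poly(A) polymerase, was also listed at 0 there and was at 192 and 23.5 TPM. The translation regulator Fmr1 was at 0.0895, 0.817, 109 and 49.0 TPM, and the lariat debranching enzyme Dbr1 was at 74.5 TPM in non-UVB 2 and 35.1 TPM in UVB 2. Of the 9, 7 were lower in UVB 2.

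Membrane, lipid and traffic genes also numbered 9. Copz2, a coatomer subunit of Golgi vesicles, was listed at 0 in the pair numbered 1 and was at 161 TPM in non-UVB 2 and 47.4 TPM in UVB 2, while its paralogue Copz1 was at 200, 252, 100 and 138 TPM in the 4 libraries. The autophagy protein gene Atg16l1 was at 31.6 TPM in non-UVB 2 and 50.8 TPM in UVB 2, and its partner Atg5 at 43.8, 31.6, 95.8 and 34.3 TPM in all 4. Pcyt1a, the rate-limiting enzyme of phosphatidylcholine synthesis, was at 36.8 and 23.2 TPM. The peroxisome assembly gene Pex16 was at 90.6 and 27.6 TPM and the chloride channel gene Ano1 at 26.7 and 64.7 TPM. Thus Copz1 and Atg5 were present in libraries where Copz2 and Atg16l1 were near 0.

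Another 5 genes encode ubiquitin ligases or their adaptors (Fbxo17, Rnf111, Dtl, Trim13 and Rnf34), with mean levels over the libraries numbered 2 of 33.4 to 46.6 TPM. Kinase, cytoskeleton and telomere genes numbered 8. Among these Pot1b, which protects telomere ends in mice beside Pot1a, was at 81.6 and 48.1 TPM, and Pot1a was at 0, 18.6, 83.8 and 0 TPM in the 4 libraries. Other named coding genes of high level were Spata24 (107 TPM in non-UVB 2 and 98.9 TPM in UVB 2), the acylphosphatase Acyp1 (138 and 34.0), Lysmd2 (124 and 38.8) and Dtwd1 (96.8 and 46.9), whose human counterpart modifies tRNA. Vopp1 was at 28.6 and 78.1 TPM.

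Of 414 genes of 15 function lists at 20 TPM or more in both libraries numbered 2, 4 (0.966%) were among the 72, beside 2.43% of all genes at that level that met both thresholds. They were Atg16l1 of 48 vesicle traffic and autophagy genes (2.08%), Pcyt1a of 14 lipid synthesis genes (7.14%), and Cxcl14 and Il24. None came from 70 nuclear-encoded oxidative phosphorylation genes, 36 spliceosome genes, 39 ubiquitin and SUMO enzymes or 29 cell cycle genes at that level. The lists are not complete, however. The 5 ubiquitin ligase or adaptor genes named above, the splicing factor Luc7l3 and the debranching enzyme Dbr1 were in none of them. These shares therefore describe the listed genes and not whole functions. In all, 9 of the 72 genes were in any of the 33 lists and 63 in none. The lists therefore place 4 genes with keratinocytes and 1 with T cells, and name no cell type for the others.

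Gene length was not used in the choice, and gene type only through the names left out. Protein-coding genes were 65 of the 72 (90.3%), against 78.6% of the 3457 genes at 20 TPM or more in both libraries numbered 2, and pseudogenes were 2 (2.78%) against 18.02%. Before names were left out, 70 of the 84 genes that met both thresholds were protein-coding (83.3%) and 2 were pseudogenes (2.38%). The median exonic length was 3136.5 bases against 2486. Members lay on 18 chromosomes, with 8 on chromosome 1 (11.1%, against 5.70% of the 3457), 8 on chromosome 7 (11.1%, against 8.504%), 7 on chromosome 3 (9.72%, against 5.00%) and 7 on chromosome 11 (9.72%, against 8.71%). Their median mean level was 55.5 TPM against 101 TPM.

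The most abundant of the 72, Gm28438 (chr1:24612775-24613119, minus strand), is a pseudogene copy of mitochondrial mt-Nd3. It was at 0.0608, 0.109, 292 and 269 TPM in the 4 libraries, and mt-Nd3, a subunit of respiratory complex I, was at 0.121, 0.108, 281 and 262 TPM. The first 61 bases of both transcripts, from GENCODE, are shown because reads from either could be assigned to the other, with capitals at the only base that differs over 345.
Gm28438: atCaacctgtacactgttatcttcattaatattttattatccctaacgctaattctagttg
mt-Nd3: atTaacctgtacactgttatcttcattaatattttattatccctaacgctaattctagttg
From mt-Nd3 to Gm28438 this is T3C, with positions counted from 1 at the 5′ end. The level of Gm28438 is therefore uncertain. On the mitochondrial genome, mt-Co3 before mt-Nd3 was at 734, 623, 4133 and 6300 TPM, and mt-Nd4l after it at 29.6, 5.40, 269 and 361 TPM. Neither neighbour fell under 1 TPM in a library numbered 1. On chromosome 1, Gm28437 beside Gm28438 was at 736, 624, 4235 and 6327 TPM, close to mt-Co3.

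For 5 of the 72 genes, such a copy elsewhere makes the level uncertain (2610318N02Rik, Gm28438, Lce3c, Lce3e and Trim13). Exonic bases were shared with another gene by 19, and by 6 over at least 20% of their length. Commd1b, at 150 TPM in non-UVB 2 and 57.3 TPM in UVB 2, shared 89.2% of its exonic bases with B3gnt2 on the same strand, and B3gnt2 was at 88.6, 34.0, 6.06 and 4.07 TPM in the 4 libraries. Reads from the shared stretch could belong to either gene, and the pair had opposite orders across the numbers.

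Within the libraries numbered 2, where the 72 genes were present, most were lower in UVB 2 than in non-UVB 2. The median log2 ratio of UVB 2 over non-UVB 2 was -0.68 (quartiles -1.15 and 0.09), and 51 of 72 (70.8%) were lower in UVB 2. Over all 3457 genes at 20 TPM or more in both, the median was -0.13 and 56.2% were lower. At least 2-fold lower were 27 of 72 (37.5%), against 19.1% of the 3457, and at least 2-fold higher were 9 (12.5%), against 10%. Among 2792 genes in the same range of mean level the median was -0.14. Each side is 1 library, so the ratio has no replicate check and no test.

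The 8 highest ratios were those of Ifi202b (6.07-fold higher in UVB 2), Lce3c (5.95), Nectin2 (3.74), Vopp1, Ano1, Ctnnb1, Mgst2 and Luc7l3, all above 2-fold. The 8 lowest were those of Tent5b (8.17-fold lower in UVB 2), Cysltr2 (4.27), Acyp1, Sh2d1a (3.82), Il24, Copz2, Gjb2 (3.37) and Pex16. Listed keratinocyte markers stood at both ends, Lce3c among the highest ratios and Gjb2 among the lowest. By role, the median log2 ratio was -0.37 for the 5 barrier genes, -0.70 for the 3 epidermal regulators, -1.002 for the 7 lymphocyte and signalling genes and -0.57 for the 9 RNA and protein synthesis genes.

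**Figure D5:**
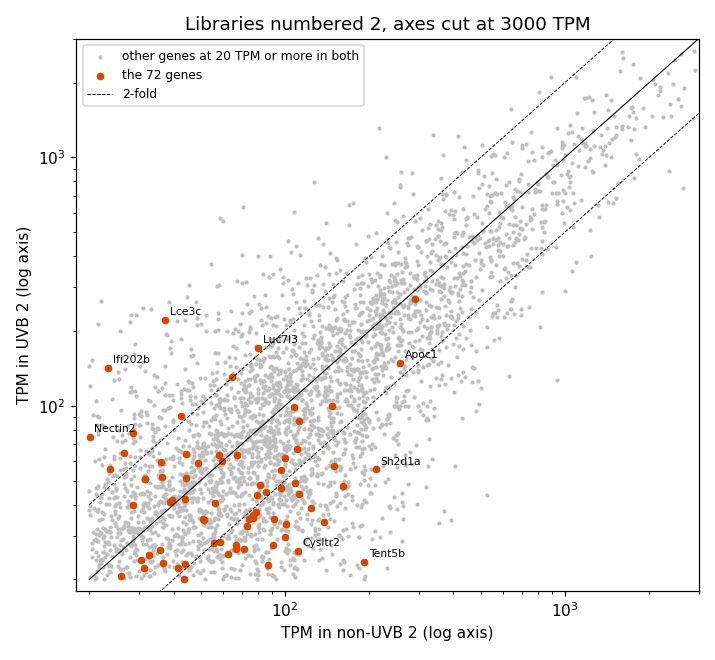
TPM in UVB 2 against TPM in non-UVB 2 on logarithmic axes for the genes at 20 TPM or more in both, with the 72 genes in orange, a solid line at equal levels and dashed lines at 2-fold. Of the 72, 27 lie below the lower dashed line and 9 above the upper one.

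Over all 4 libraries, the UVB test says nothing on whether these genes changed, because the choice fixed 1 library with and 1 without them in each group. All 72 were fitted among 10286 genes with limma on log2(TPM + 1), 2 libraries a group, and none had an adjusted p under 0.05 (Benjamini-Hochberg), as was so for every gene tested (0.0%). None had an unadjusted p under 0.05, a count that the choice constrains and that is not to be read against the 9.97% of all tested genes higher with UVB and the 1.37% lower. The lowest unadjusted p among the 72 was 0.68 and the lowest adjusted p was 0.9998. Standard errors of the log2 difference ran from 2.37 to 4.16, with a median of 3.08 against 1.12 over all genes.

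The median log2 difference, UVB minus non-UVB, was -0.29 for the 72 and 0.26 for all tested genes. For the 72 it was 0.0 within the libraries numbered 1, where the choice holds both values near 0, and -0.67 within those numbered 2. The value of -0.29 is therefore not to be read against that of all genes. Single values were -1.02 ± 3.57 (SE) for Sh2d1a, -1.49 ± 3.35 for Tent5b, -0.39 ± 3.99 for Apoc1 and 1.30 ± 3.47 for Lce3c, each with 2 libraries a group. Trp63 had a difference of -0.33 and Luc7l3 of 0.54. Every one of these differences was smaller than its error. Without non-UVB 1 the median over the 72 was -3.33 and without UVB 1 it was 2.28, so the sign depends on which library numbered 1 is left in.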

How the data were processed

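RNA was measured in 4 libraries, 2 without and 2 with UVB, prepared with a SMARTer kit for very small RNA amounts and read single-end at 100 bp, per the labels' protocols. The submitters' processing notes name the tools HISAT2, StringTie and DESeq2 and the build GRCm38 (mm10), without version or role, and the sources used here do not give strandedness. The authors deposited 1 table per library with coverage (mean read depth per base), FPKM and TPM for each gene, per the file headers. Deposited coverage served only to derive depth: its highest ratio to FPKM gave the bases sequenced or aligned, and 1 read on a gene of 1 kb is worth 0.0369 to 0.0612 TPM. Intervals for counting error were not computed, since read counts were not recovered.

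Rows of 1 gene ID were summed, giving 55487 genes. Genes at 1 TPM or more in at least 2 libraries (10286) were fitted with limma 3.58.1 in R 4.3.3 on log2(TPM + 1), which understates changes of low genes, with group as the only term, an intensity trend, and Benjamini-Hochberg adjustment at 0.05. The fit was tested on simulated data. GENCODE M21, in which 55227 IDs were found and 54903 had the same coordinates, gave gene types, lengths and overlaps. Copies were searched with blastn 2.17.0. Promoters and microRNAs came from RefSeq.

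The 72 genes and the 33 lists of marker and function genes (1790 entries, of which 2 were not found) were chosen with earlier results of these data known. Named were the 20 genes of highest mean level in the libraries numbered 2, every listed gene, the 8 highest and 8 lowest ratios of UVB 2 to non-UVB 2, and the 5 genes on each side of each threshold; predicted genes were not taken by level or ratio. Neighbours, paralogues, partners and other genes named by role were chosen after their values were seen.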

Additional observations from a re-analysis of the deposited data

How the results depend on the processing

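The number of genes chosen was 121 at a minimum of 10 TPM and 15 at 50 TPM in the libraries numbered 2, against 72 at 20 TPM. With FPKM in place of TPM it was 50. Limits of 0.5 and 2 TPM in the libraries numbered 1 gave 70 and 80 genes, and TPM rescaled without haemoglobin and mitochondrially encoded genes gave 73. Leaving out 1 library, an alternative added after seeing the data, gave 120 to 455 genes. The median log2 ratio of UVB 2 over non-UVB 2 stayed between -0.71 and -0.37 under every alternative run. The median UVB difference over the chosen genes ran from -3.33 to 2.28 when 1 library was left out. Without a library numbered 2 the genes failed the filter, so no value could be had. Numbers of genes at an unadjusted p under 0.05 ran from 33 to 1577 when 1 library was left out, and the lone library was then assumed to vary like the other group. No alternative gave an adjusted call. Of the named genes, Lce3c (-1.28) and Luc7l3 (-2.63) turned sign without non-UVB 1. Without UVB 1, Sh2d1a (1.88), Trp63 (2.64), Tent5b (0.82) and Apoc1 (3.22) turned sign. The choice constrains these signs, since a near-absent library is then left in 1 group only. All 72 genes were lower with UVB when non-UVB 1 was left out, and 0 were lower when UVB 1 was. Leaving out 1 library gave -4.81 to 1.88 for Sh2d1a, -3.66 to 2.64 for Trp63, -5.29 to 0.82 for Tent5b, -1.28 to 5.12 for Lce3c, -4.40 to 3.22 for Apoc1 and -2.63 to 4.26 for Luc7l3. Same-numbered libraries deviated together with r = 0.165 over 10286 genes, which are not independent; with 2 pairs this does not show pairing. With the replicate number as a block, 0 genes had an adjusted p under 0.05, 1110 had an unadjusted p under 0.05, and the median difference was -0.29. Depth limits low values: 1 read on 1 kb was worth up to 0.0612 TPM.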

Other observations

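The 12 genes that met both thresholds and were left out by name add values of the same kind. Krt15, a keratin of basal and hair follicle keratinocytes, was listed at 0 in non-UVB 1 and UVB 1 and was at 739 TPM in non-UVB 2 and 364 TPM in UVB 2, above every one of the 72 genes in both. Krtcap3, named for keratinocytes, was likewise listed at 0 and was at 104 and 94.8 TPM. Gzma, the cytotoxic granule protease granzyme A, was listed at 0 and was at 107 and 166 TPM. Ikzf4, the Foxp3 partner Eos, was at 0.032, 0.014, 78.3 and 77.2 TPM in the 4 libraries, in the order used above. The receptor segments Traj5 and Trav7-4 were at 40.7 and 24.99 TPM and at 44.5 and 33.5 TPM in the libraries numbered 2. Among the other 6 were mt-Nd3 and 5 mitochondrial tRNA genes, such as mt-Te at 162 and 317 TPM.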
